A study of Mus musculus with 32 samples.

Results

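The comparison described here is that of liver transcripts in mice fed metformin (MET) and in mice fed the same control diet without a drug (CON). It takes 8 of the 32 arrays of a study of candidate calorie restriction mimetics, 4 MET and 4 CON, and all probe sets other than the manufacturer's controls. All animals were male mice of the B6C3F1 hybrid strain, were kept 1 per cage from 5 months of age, and were killed at 22 months after 48 hours without food. MET mice ate control diet into which metformin had been pressed, for 8 weeks from 20 months of age, and CON mice went on with 93 kcal per week of that diet over the same 8 weeks. The dose and the food intake of the MET mice are not given in the sources used here. Of the other 6 groups, 4 are used below, each given the control diet for the same 8 weeks with glipizide, a sulfonylurea that releases insulin (GLIP), with glipizide and metformin together (GM), with rosiglitazone, a PPAR gamma agonist (ROS), or with a soy isoflavone extract (SOY). The remaining groups, under long-term (LTCR) or 8-week (CR8) calorie restriction, appear only where levels in all groups are given. Both received 52.2 kcal per week, LTCR from 5 months of age and CR8 from 20 months. Each group had 4 mice, and each sample was whole liver total RNA on 1 Affymetrix MG-U74Av2 array, so the measurements are relative transcript intensities of a tissue and not of 1 cell type.

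Metformin is a biguanide that lowers blood glucose, mainly by reducing glucose output from the liver. In hepatocytes it inhibits complex I of the mitochondrial respiratory chain, and the resulting fall in cellular energy charge activates the AMP-activated protein kinase (AMPK). AMPK is known to restrain lipid and sterol synthesis, among other ways by acting on the sterol regulatory element binding proteins (SREBPs), the transcription factors that switch on the enzymes of both pathways. Interferon-induced genes, the other large group below, are switched on by complexes of STAT proteins and interferon regulatory factors that bind short response elements in promoters.

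Differences were taken on log2(intensity + 27.0) and tested with limma over all 32 arrays, a call being an adjusted p below 0.05. Of 7507 probe sets above the intensity filter, 308 were called, 135 higher and 173 lower in MET (4.1%), and 1342 had an unadjusted p under 0.05. When all arrays were scaled to equal medians instead, the split was 192 higher and 67 lower, so the direction of the balance depends on the scaling. Counted as 5659 genes, each represented by its most intense probe set, 97 were called higher (1.71%) and 135 lower (2.39%), and 563 genes (9.95%) had 4 MET and 4 CON values that did not overlap, 195 of the 232 called genes among them. A fit to the 8 arrays alone, with 6 residual degrees of freedom in place of 24, called 31 probe sets, 15 higher and 16 lower, so most calls rest on the spread shared by all 8 groups. Without CON 4, the array whose absence lowered the count most, 138 probe sets were called, and 148 were without CON 1, 175 without CON 3, 190 without MET 3 and 200 without MET 4. CON 3 carried skeletal muscle transcripts, and without it and the 4 arrays of other groups that also did, 96 probe sets were called. The column medians of intensity were 156 ± 8.32 in MET and 164 ± 1.33 in CON (SD, n = 4 each, two-sided exact permutation test, p = 0.0571, the smallest possible being 0.0286).

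Transcripts of cholesterol synthesis enzymes stood higher on average in MET livers than in CON livers. Of 22 listed enzymes of the pathway, 17 were on the array and 16 passed the filter; 5 of the 16 rose, none fell, and 15 had a positive difference, with a median log2 difference of 0.65 against -0.04 over all tested genes. Over all tested genes, 1.71% were called higher and 2.39% lower. The 5 called enzymes were Idi1, Fdps, Fdft1, Lss and Nsdhl, which act at successive points between the isoprene units and the sterols. In bulk tissue, a difference in the number of cells of a type and a difference in RNA per cell cannot be told apart. List genes that were also among the 15 largest rises or falls were picked there for groups that did not overlap. Their separation, given below, is therefore part of that choice and not a further result.

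Fdps makes farnesyl diphosphate, the branch point of the pathway. Its intensity was 8608, 2859, 1329 and 4319.5 in the MET livers, against 562, 1664, 710.2 and 461 in the CON livers. The highest of the 8 values was that of MET 1 and the groups overlapped, because CON 2 lay above MET 3. The log2 difference was 2.17 ± 0.46 (SE), which is 4.5-fold on that scale (adjusted p = 0.00805), and the call held with each array left out. Another Fdps probe set gave 1.84 ± 0.39 (adjusted p = 0.0079). Idi1, which isomerises isopentenyl diphosphate 1 step earlier, had intensities of 2377, 910.1, 584 and 1479 in the MET livers, against 259.5, 721, 345 and 184 in the CON livers. Its order within MET and the high CON 2 value were those of Fdps, and the groups again overlapped. The log2 difference was 1.74 ± 0.51 (adjusted p = 0.0476), and the call ended without any 1 of 6 of the 8 arrays (adjusted p up to 0.158, without CON 4).

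Nsdhl, a dehydrogenase that takes part in removing the C4 methyl groups of sterols, had intensities of 1557, 852, 738 and 987 in the MET livers, against 506, 665, 489.5 and 342 in the CON livers. All MET values lay above all CON values, with MET 1 far above the other MET livers. It rose by 0.98 ± 0.22 (adjusted p = 0.00972), the call ended without CON 4 (adjusted p = 0.0504), and its other probe sets gave 0.97 and 0.92 (adjusted p = 0.0489 and 0.0326). Lss, which folds oxidised squalene into lanosterol, had 515, 349, 264 and 323 in the MET livers, against 151, 216, 206 and 159.7 in the CON livers. Here too the groups did not overlap; the difference was 0.87 ± 0.18 (adjusted p = 0.00763) and the call held with each array left out. Fdft1, the enzyme that makes squalene, was the most even of the 5, with 2259.7, 2074, 2096 and 2124 in the MET livers, against 1489, 1629.6, 1583 and 1520.2 in the CON livers. Its groups were apart and tight, the difference was 0.45 ± 0.13 (adjusted p = 0.0412), and the call ended without any 1 of the 8 arrays (adjusted p up to 0.101, without CON 1).

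Further enzymes of the pathway differed in size but did not pass the test. Sqle, which oxidises squalene, had 829.5, 722, 519 and 840.4 in the MET livers, against 278, 568, 282 and 323 in the CON livers. CON 2 stood above MET 3, and the difference was 0.99 ± 0.31 (adjusted p = 0.069). Msmo1, which oxidises the C4 methyl group, gave 1.40 ± 0.46 (adjusted p = 0.0846), and Dhcr7, the last enzyme of the pathway, 0.84 ± 0.28 (adjusted p = 0.0809); both had overlapping groups. The number of called enzymes depended on single arrays. It was 2 without CON 4 and 3 without CON 1, CON 3, MET 1, MET 2 or MET 4, against 7 at most, and 2 without the arrays with muscle transcripts. In the fit to the 8 arrays alone Fdft1 was the called enzyme (adjusted p = 0.0488), and Fdps gave 0.0795. In the whole set of tested genes, 2.39% were called lower and 1.71% higher. Abca1, the pump that exports cholesterol from cells, was the called member of the 6 tested genes of cholesterol uptake and regulation, and it fell. Its intensity was 1270.4, 1086, 919 and 1098 in the MET livers, against 1755, 1436, 1834 and 1623 in the CON livers. The groups did not overlap, the difference was -0.60 ± 0.11 (adjusted p = 0.00407), and the call held with each array left out, but a dimmer Abca1 probe set gave -0.02 ± 0.16 (adjusted p = 0.958).

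Transcripts of fatty acid synthesis enzymes went on average in the same direction. Of 25 listed enzymes, 15 were on the array and 14 were tested. Fasn, Elovl5, Fads1, Slc25a1 and Pklr rose, none fell, and the median log2 difference was 0.34. Among all tested genes, 1.71% were called higher and 2.39% lower. Fads1, the desaturase that makes highly unsaturated fatty acids, had intensities of 9759.7, 7055, 4500.0 and 8173 in the MET livers, against 3418, 3691, 3823 and 3523 in the CON livers. Every MET liver exceeded every CON liver, MET 1 the most and MET 3 the least. The difference was 0.97 ± 0.17, 1.96-fold (adjusted p = 0.00226), and the call held with each array left out. Slc25a1, the carrier that exports citrate from mitochondria as the carbon source of synthesis, had 4443, 2995, 2946 and 3261 in the MET livers, against 2322, 2392, 2146 and 2192 in the CON livers. The groups were apart, with a difference of 0.57 ± 0.10 (adjusted p = 0.00226), and the call held with each array left out. Its other probe set gave 0.39 ± 0.12 (adjusted p = 0.0747).

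Pklr, the liver form of pyruvate kinase, which feeds glycolytic carbon towards lipid, had 1137, 965, 704 and 939.7 in the MET livers, against 607, 530.3, 625 and 534 in the CON livers. MET 3 was the lowest MET liver and still lay above all CON livers; the difference was 0.66 ± 0.13 (adjusted p = 0.00663), the call held with each array left out, and its other probe set gave 1.49 ± 0.21 (adjusted p = 0.000493). Fasn, the fatty acid synthase itself, had 2432, 1165, 905 and 988 in the MET livers, against 633, 747, 956 and 642 in the CON livers. MET 1 stood apart and MET 3 fell below CON 3, so the groups overlapped. Its difference of 0.76 ± 0.22 (adjusted p = 0.0437) was a call that ended without any 1 of 5 of the 8 arrays (adjusted p up to 0.177, without MET 1). Elovl5, an elongase of unsaturated fatty acids, gave 0.46 ± 0.13 (adjusted p = 0.0358), also with overlap, and its call ended without any 1 of 6 of the 8 arrays (adjusted p up to 0.111, without CON 3). Scd1, the stearoyl-CoA desaturase, did not pass, with 31692, 38309, 18342 and 32281 in the MET livers, against 24666, 24059.7, 27851 and 22166 in the CON livers and a difference of 0.24 ± 0.28 (adjusted p = 0.711). MET 3 was the lowest of the 8 livers for Scd1. The number of called enzymes was 9 without MET 3 and 3 without CON 1, CON 4, MET 1 or MET 2. None was called in the fit to the 8 arrays alone, where Fads1 had the adjusted p of 0.0527.

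Among 6 tested lipogenic regulators, Srebf1, Mid1ip1 and Rxra rose, none fell, and the median was 0.50. For all tested genes the shares were 1.71% called higher and 2.39% called lower. Srebf1 encodes SREBP-1, the transcription factor of fatty acid synthesis. It had intensities of 4995, 3660.1, 3246 and 3708 in the MET livers, against 2869, 2331, 2404 and 2563 in the CON livers. The groups did not overlap, MET 1 was again highest, and the difference was 0.60 ± 0.13 (adjusted p = 0.00972), a call that held with each array left out. Mid1ip1, a protein that promotes the polymerisation of acetyl-CoA carboxylase, had 1655, 1046, 964 and 1185 in the MET livers, against 598, 646, 801 and 592 in the CON livers. The groups were apart, with 0.83 ± 0.21 (adjusted p = 0.0219) and 0.74 ± 0.17 on its other probe set (adjusted p = 0.0158), and the call ended without CON 1, CON 4 or MET 1 (adjusted p up to 0.0776, without MET 1). Rxra, the partner of many nuclear receptors, gave 0.41 ± 0.10 (adjusted p = 0.0264); the call ended without any 1 of 4 of the 8 arrays (adjusted p up to 0.109, without CON 3), and another probe set of Rxra gave 0.20 ± 0.15 (adjusted p = 0.501). Thrsp, a lipogenic protein related to Mid1ip1, ranged widely, with 5094, 2574, 619.6 and 2168 in the MET livers, against 845, 828, 1397 and 824 in the CON livers. MET 3 was the lowest of the 8 and CON 3 stood above the other CON livers, so 1.10 ± 0.37 was not a call (adjusted p = 0.0878). Without CON 4, Srebf1 was the called gene of the 6, and in the fit to the 8 arrays alone none was called (Srebf1, adjusted p = 0.0675). Srebf2, Acaca and Acacb were not analysed here.

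**Figure D1:**
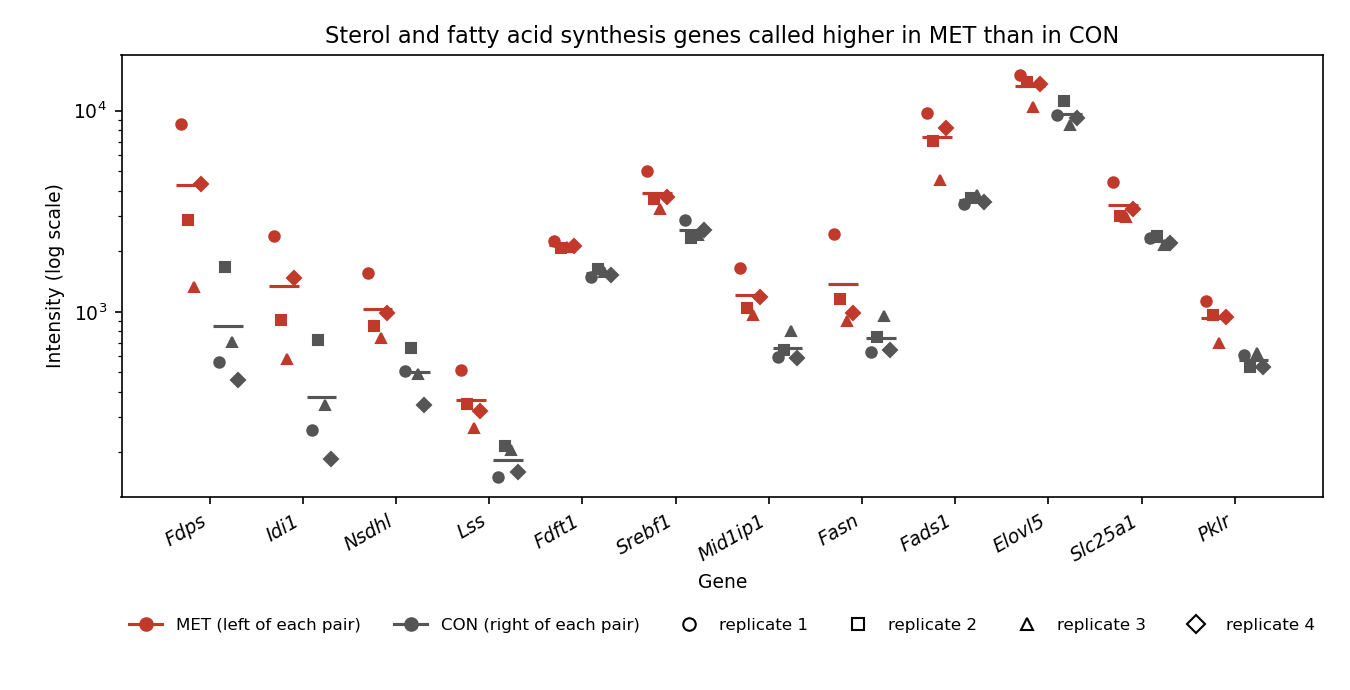
Intensity (log scale) of 12 called genes of sterol and fatty acid synthesis in each of the 4 MET (left) and 4 CON (right) livers, with group means as bars and replicates as symbols. MET 1 (circle) was highest and MET 3 (triangle) lowest for most genes, as for Fdps at 8608 and 1329.

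Interferon-induced genes were lower in MET livers. Of 56 listed genes, 38 were on the array and 32 were tested. None rose and 11 fell: Ifit1, Ifit3, Isg15, Usp18, Rsad2, Irf9, Ifi47, Irgm1, Igtp, Gbp3 and Lgals3bp. Over all tested genes, 2.39% were called lower and 1.71% higher. The median log2 difference of the 32 genes was -0.53, and 27 of them were below 0. The promoters of 10 of the 11 genes are in the RefSeq table (Usp18 is not), and 7 of these 10 hold the motif GAAANNGAA, the core of the response element for interferon regulatory factors, on either strand within 250 bases before and 50 after the start of the gene. The motif is in 8.56% of the 32851 promoters of the same length. Of the 16 genes of the list with an entry that were tested and not called, 9 hold it. A match is a description of letters and not a shown binding site. The stretches of 6 promoters of called genes that hold the motif are given as examples. They are from build GRCm38.p6, on the gene's own strand, with the motif in capitals. The motif is shown as its reverse complement where it lies on the other strand, and matches can overlap.

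Ifit1, chr19:34640735-34640858, plus strand: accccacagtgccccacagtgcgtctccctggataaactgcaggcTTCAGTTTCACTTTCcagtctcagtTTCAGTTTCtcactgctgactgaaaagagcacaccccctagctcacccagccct
Ifit3, chr19:34583329-34583480, plus strand: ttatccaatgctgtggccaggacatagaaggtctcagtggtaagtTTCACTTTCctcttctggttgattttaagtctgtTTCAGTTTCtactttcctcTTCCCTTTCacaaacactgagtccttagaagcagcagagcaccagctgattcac
Isg15, chr4:156200831-156200941, minus strand: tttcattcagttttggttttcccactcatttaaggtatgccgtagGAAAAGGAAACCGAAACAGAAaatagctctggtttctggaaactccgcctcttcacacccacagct
Rsad2, chr12:26456518-26456616, minus strand: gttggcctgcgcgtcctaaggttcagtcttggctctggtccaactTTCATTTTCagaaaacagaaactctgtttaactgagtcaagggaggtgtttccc
Irgm1, chr11:48871391-48871495, minus strand: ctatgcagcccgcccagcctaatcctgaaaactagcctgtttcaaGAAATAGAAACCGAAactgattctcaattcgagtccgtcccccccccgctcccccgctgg
Igtp, chr11:58199477-58199575, plus strand: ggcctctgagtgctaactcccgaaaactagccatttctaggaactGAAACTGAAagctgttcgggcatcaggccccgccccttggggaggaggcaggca

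Ifit1, Ifit3 and Isg15 each show 3 matches, Irgm1 shows 2, and Rsad2 and Igtp show 1. For the sterol genes the same search used TCACNCCAC, a core of the sterol response element, which is in 1.24% of all promoters. No called gene of the sterol, fatty acid or regulator lists with an entry holds it; Fdps, Fdft1 and Fads1 have no entry. CCAAT, the site of the factor NF-Y that acts beside SREBPs, is in the promoters of Idi1, Lss, Nsdhl, Fasn, Elovl5, Slc25a1, Pklr and Srebf1, and in 37.4% of all promoters. It is also in those of all 10 sterol enzymes with an entry that were tested and not called.

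Ifit1, whose product binds viral RNA lacking host cap methylation, had intensities of 125, 20.8, 189 and 174 in the MET livers, against 419, 576, 299 and 493 in the CON livers. MET 2 was the lowest and all MET livers lay below all CON livers. The difference was -1.79 ± 0.34, 3.47-fold lower (adjusted p = 0.00425), and the call held with each array left out. Ifit3, its partner protein, had 122, 96.0, 163 and 149.8 in the MET livers, against 336, 471, 204 and 409 in the CON livers. The groups did not overlap, with -1.22 ± 0.23 (adjusted p = 0.00425), and the call held with each array left out. Rsad2, which encodes viperin, an enzyme that makes a chain-terminating nucleotide, had 135, 166, 160.0 and 116 in the MET livers, against 374, 388, 283 and 322 in the CON livers. Its groups were apart too, with -1.11 ± 0.26 (adjusted p = 0.0151), and the call held with each array left out. Within CON, CON 3 was the lowest liver for all 3 genes.

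Isg15, a ubiquitin-like modifier, had 501, 450.5, 572 and 499.7 in the MET livers, against 979, 961, 605 and 854 in the CON livers. The MET livers were even and CON 3 came nearest to them; the difference was -0.70 ± 0.20 (adjusted p = 0.0412), and the call ended without any 1 of 7 of the 8 arrays (adjusted p up to 0.116, without CON 1). Usp18, the protease that removes Isg15 and dampens interferon receptor signalling, gave -1.27 ± 0.35 (adjusted p = 0.034), and its call ended without any 1 of 6 of the 8 arrays (adjusted p up to 0.122, without CON 2). Irf9, the DNA-binding part of the type I interferon complex, had 563, 509, 811 and 711 in the MET livers, against 949, 1162, 769 and 1084 in the CON livers. MET 3 exceeded CON 3, so the groups overlapped, and the difference of -0.60 ± 0.16 (adjusted p = 0.0307) was a call that ended without any 1 of 5 of the 8 arrays (adjusted p up to 0.101, without MET 2). Lgals3bp, a secreted glycoprotein, gave -0.54 ± 0.14 (adjusted p = 0.0323), also with overlap, and its call ended without any 1 of 6 of the 8 arrays (adjusted p up to 0.107, without CON 4).

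Irgm1, Gbp3, Ifi47 and Igtp encode interferon-inducible GTPases, which act on the vacuoles of intracellular microbes, and all 4 fell. Irgm2, Gbp7 and Iigp1, of the same families, did not pass, at -0.65 ± 0.20, -0.77 ± 0.26 and -0.53 ± 0.18 (adjusted p = 0.0544, 0.0847 and 0.0912), although a dimmer Iigp1 probe set was called at -0.80 ± 0.17 (adjusted p = 0.00815). Irgm1 had 225, 203, 226 and 209 in the MET livers, against 534, 658, 401 and 508 in the CON livers. The MET values lay close together, every one of them was below every CON value, and the difference was -1.17 ± 0.17, 2.25-fold lower (adjusted p = 0.000493), a call that held with each array left out. Gbp3 had 258, 235, 346 and 236 in the MET livers, against 494, 816, 418 and 768 in the CON livers. Its groups were apart, with -1.10 ± 0.25 (adjusted p = 0.0132), and the call ended without CON 4 (adjusted p = 0.0519). Ifi47 gave -1.12 ± 0.28 (adjusted p = 0.0251) and its call ended without CON 4, MET 2 or MET 3 (adjusted p up to 0.0665, without MET 2); Igtp gave -1.03 ± 0.30 (adjusted p = 0.0459) and its call ended without any 1 of 7 of the 8 arrays (adjusted p up to 0.135, without CON 4). The number of called genes of the whole list was 4 without CON 4, 5 without MET 2, 6 without CON 1, CON 2 or MET 1, and 7 without MET 4. It was 11 without the arrays with muscle transcripts. With arrays scaled to equal medians it was 6, and in the fit to the 8 arrays alone it was 3 (Irgm1, Rsad2 and Ifi47, adjusted p = 0.0182, 0.0372 and 0.0372).

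**Figure D2:**
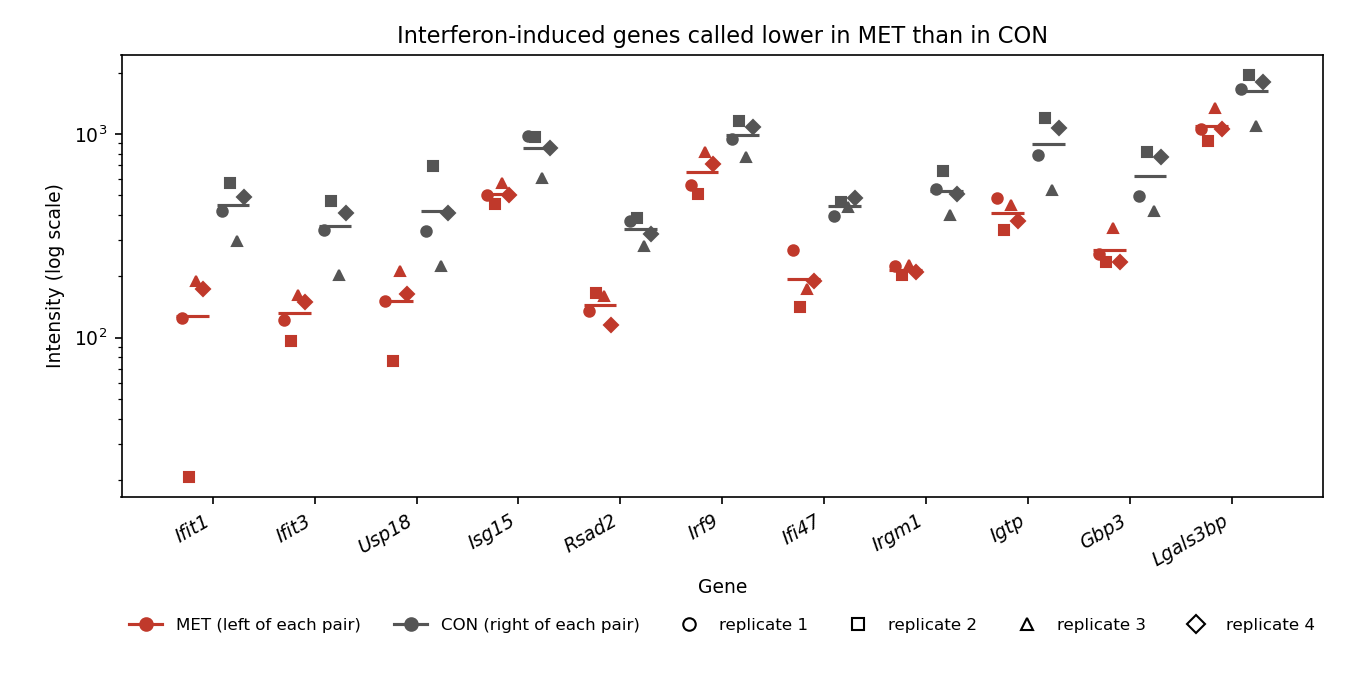
Intensity (log scale) of the 11 called interferon-induced genes in each of the 4 MET (left) and 4 CON (right) livers, with group means as bars and replicates as symbols. CON 3 (triangle) was the lowest CON liver for most genes, and for Irf9 and Lgals3bp it lay among the MET values.

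Genes of the AMPK pathway were also listed. None of 12 tested was called, where 1.71% of all genes were called higher and 2.39% lower, so the count is near the background; their differences ran between -0.46 and 0.69 with a median of 0.10. Stk11, the kinase that activates AMPK, gave -0.00 ± 0.12 (adjusted p = 0.993). Prkab1, a scaffold subunit of AMPK, gave -0.05 ± 0.12 (adjusted p = 0.874), and Prkag1, a nucleotide-binding subunit, 0.69 ± 0.25 (adjusted p = 0.121). The catalytic subunits Prkaa1 and Prkaa2 were not analysed here, and none of 3 tested cation transporters was called. Transcript levels do not measure the activity of the kinase.

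Of 14 tested genes of gluconeogenesis and glycogen metabolism, Fbp1 and Pgm1 rose and none fell. The shares over all tested genes were 1.71% called higher and 2.39% called lower. Fbp1, the fructose bisphosphatase of gluconeogenesis, had 18740.5, 18728, 17161 and 18226 in the MET livers, against 15834, 15332, 16323 and 15351 in the CON livers. The groups did not overlap although the difference was small, at 0.21 ± 0.06 (adjusted p = 0.0412), and the call ended without any 1 of 7 of the 8 arrays (adjusted p up to 0.106, without CON 4). Pgm1, which interconverts glucose phosphates, gave 0.23 ± 0.07 (adjusted p = 0.0475), and its call ended without any 1 of the 8 arrays (adjusted p up to 0.144, without CON 1). Both calls ended after quantile normalization (adjusted p = 0.524 for Fbp1 and 0.0983 for Pgm1). G6pc, the glucose phosphatase that releases glucose to blood, had 5513, 4902, 5176 and 3185 in the MET livers, against 2648, 2609, 3273 and 3784 in the CON livers. MET 4 lay within the CON range and the difference was 0.59 ± 0.26 (adjusted p = 0.216). Pck1, the phosphoenolpyruvate carboxykinase, had 2421, 3043, 5161 and 3728 in the MET livers, against 4562, 4264, 3542 and 4519 in the CON livers. MET 3 was the highest of the 8 and MET 1 the lowest, and the difference was -0.28 ± 0.14 (adjusted p = 0.306). Pcx, pyruvate carboxylase, gave -0.04 ± 0.10 (adjusted p = 0.867), and Nr0b2, a nuclear receptor that represses gluconeogenic genes, -0.14 ± 0.22 (adjusted p = 0.805).

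Mitochondrial glycerol phosphate dehydrogenase, another proposed target of the drug, is encoded by Gpd2, which gave -0.07 ± 0.24 (adjusted p = 0.921); the cytosolic enzyme gene Gpd1 gave 0.22 ± 0.14 (adjusted p = 0.423). Of 29 tested subunits and assembly factors of complex I, Ndufb8 alone was called, 21 had positive differences and the median was 0.13. Over all tested genes 1.71% were called higher and 2.39% lower, so 1 call of 29 is near the background. Ndufb8 had 3953, 4100.5, 3249.8 and 3725 in the MET livers, against 2933, 2568, 3114 and 2612 in the CON livers. The groups were apart, at 0.42 ± 0.11 (adjusted p = 0.0278), and the call ended without any 1 of 6 of the 8 arrays (adjusted p up to 0.0891, without CON 4). The core subunits gave 0.30 ± 0.10 for Ndufv1 (adjusted p = 0.0788) and -0.04 ± 0.10 for Ndufs1 (adjusted p = 0.861). Among 34 genes of complexes II to V, Uqcr10 and Atp5l rose, by 0.26 ± 0.07 and 0.31 ± 0.08 (adjusted p = 0.0416 and 0.0276), and Cox6c fell, with a difference of -0.36 ± 0.09 (adjusted p = 0.0176). The other Atp5l probe set gave -0.19 ± 0.19 (adjusted p = 0.637). The call of Uqcr10 ended without any 1 of 7 of the 8 arrays (adjusted p up to 0.136, without MET 2), that of Atp5l ended without any 1 of 4 of the 8 arrays (adjusted p up to 0.104, without CON 4), and that of Cox6c ended without any 1 of 4 of the 8 arrays (adjusted p up to 0.0598, without CON 4); the other Cox6c probe set gave -0.55 ± 0.17 (adjusted p = 0.0665). In the citric acid cycle 1 of 22 genes was called, which is also near the share over all genes. It was Dld, the shared dehydrogenase subunit of the pyruvate and oxoglutarate complexes, at -0.34 ± 0.09 (adjusted p = 0.0276). Its call ended without any 1 of 4 of the 8 arrays (adjusted p up to 0.102, without CON 1).

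None of 21 tested insulin and IGF signalling genes was called. With 1.71% of all genes called higher and 2.39% lower, a list of this size would hold few or no calls. Irs2, the insulin receptor substrate that responds to fasting, gave 0.98 ± 0.40 (adjusted p = 0.182) from dim signals, and Igf1, the growth factor that liver secretes, 0.24 ± 0.12 (adjusted p = 0.303). A dimmer Igf1 probe set was called, at 0.32 ± 0.09 (adjusted p = 0.0378). Igfbp1, a fasting-induced IGF binding protein, gave -0.25 ± 0.35 (adjusted p = 0.764), and Txnip, a glucose-responsive inhibitor of glucose uptake, 0.29 ± 0.31 (adjusted p = 0.688); the other Txnip probe set gave -0.27 ± 0.13 (adjusted p = 0.285). Of the transcription factors of hepatocytes, Ppara, the fasting receptor for fatty acids, gave 0.01 ± 0.34 (adjusted p = 0.988) with MET 3 far below the other 7 livers, and Hnf4a gave 0.44 ± 0.18 (adjusted p = 0.181). Irs1, Insr and Ppargc1a lay below the intensity filter.

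Of 31 tested genes of fatty acid oxidation and ketogenesis, 2 fell and none rose, with a median of -0.04, against -0.04 over all tested genes. Among all genes, 2.39% were called lower and 1.71% higher. Acadl, the long-chain acyl-CoA dehydrogenase, had 1034, 1073, 743 and 924 in the MET livers, against 1509, 1155, 1449 and 1180.1 in the CON livers. The groups did not overlap, the difference was -0.48 ± 0.12 (adjusted p = 0.0264), and the call ended without any 1 of 4 of the 8 arrays (adjusted p up to 0.101, without MET 3). Cyp4a10, a fatty acid hydroxylase induced through PPAR alpha, had 3901, 6930.3, 5791 and 5014 in the MET livers, against 9072, 7883, 8305 and 8243 in the CON livers. All MET livers were below all CON livers, at -0.66 ± 0.17 (adjusted p = 0.0251), and the call ended without any 1 of 4 of the 8 arrays (adjusted p up to 0.0896, without MET 1). Cpt1a, the gate of fatty acid entry into mitochondria, gave 0.25 ± 0.11 (adjusted p = 0.214).

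Some genes of phospholipids and lipoproteins were among the bright genes that rose. Pcyt2, which makes the activated ethanolamine of phosphatidylethanolamine synthesis, had 8610.2, 7114, 7294 and 8143 in the MET livers, against 5536, 5897, 5414 and 5602 in the CON livers. The groups were apart, with 0.47 ± 0.08 (adjusted p = 0.00135), and the call held with each array left out. Pemt, which methylates that lipid to phosphatidylcholine, gave 0.51 ± 0.12 (adjusted p = 0.0202) and its call ended without CON 4 or MET 3 (adjusted p up to 0.0568, without MET 3). They were the called members of 15 tested glycerolipid genes. Of these 15, 9 had positive and 6 negative differences, with a median of 0.05. Over all tested genes, 1.71% were called higher and 2.39% lower. Of 15 tested apolipoprotein and remodelling genes, 3 rose: Apoa1, the main protein of high density lipoprotein, Apoc1 and Apoe. Apoa1 had 36012, 37486, 38981 and 37917 in the MET livers, against 25619, 29586, 32183 and 29061 in the CON livers, which did not overlap. The differences were 0.37 ± 0.10, 0.32 ± 0.07 and 0.38 ± 0.10 for the 3 genes in that order (adjusted p = 0.0318, 0.0132 and 0.0234). The call of Apoa1 ended without any 1 of 6 of the 8 arrays (adjusted p up to 0.115, without CON 1), that of Apoc1 held with each array left out, and that of Apoe ended without any 1 of 5 of the 8 arrays (adjusted p up to 0.0721, without CON 1). After quantile normalization none of the 3 was called (adjusted p = 0.415, 0.681 and 0.632).

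Cytochrome P450 genes were called in both directions, 5 higher and 3 lower of 27 tested, beside 1.71% and 2.39% of all genes. Cyp4a12b, a fatty acid hydroxylase of liver and kidney, had 2635, 1751, 2462 and 3133 in the MET livers, against 7263, 8454, 6162 and 6150.4 in the CON livers. The groups were far apart, the difference was -1.50 ± 0.30, 2.82-fold lower (adjusted p = 0.00611), and the call held with each array left out. The probe set of Cyp4a10 is of a type that can take signal from near-identical genes. Those of Cyp2c38, Cox6c, Psmb4 and Rpl41 are of the same type, as are the other ones given for Fdps and Iigp1. Cyp3a25 fell as well, with -0.48 ± 0.10 (adjusted p = 0.00611), and its call held with each array left out.

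Cyp2b13, a P450 known as higher in female mouse liver, had 2358, 4105, 891 and 1902 in the MET livers, against 879, 122, 971 and 428 in the CON livers. MET 3 was the lowest MET liver and lay below CON 3, so the groups overlapped; the difference of 2.04 ± 0.60 (adjusted p = 0.0489) was a call that ended without any 1 of 6 of the 8 arrays (adjusted p up to 0.181, without CON 2). Cyp17a1, a steroid hydroxylase, gave 1.00 ± 0.27 (adjusted p = 0.037) with overlap, and its call ended without any 1 of 4 of the 8 arrays (adjusted p up to 0.141, without CON 4). Cyp2e1, which oxidises ethanol and acetone, gave 0.33 ± 0.08 (adjusted p = 0.0172) and its call ended without CON 1 or CON 4 (adjusted p up to 0.0659, without CON 4); Cyp2c38 gave 0.43 ± 0.12 (adjusted p = 0.0476) and its call ended without any 1 of 7 of the 8 arrays (adjusted p up to 0.139, without CON 2). After quantile normalization Cyp2b13, Cyp2e1 and Cyp2c38 were not called (adjusted p = 0.0584, 0.521 and 0.0673). Cyb5r3, the reductase that supplies electrons to desaturases and to sterol synthesis, had 7366, 6800.4, 4469 and 6041 in the MET livers, against 4349, 3805, 4311 and 4163 in the CON livers. The groups were apart, with MET 3 the nearest to CON; the difference was 0.54 ± 0.11 (adjusted p = 0.00678) and the call held with each array left out. Of 41 tested conjugating and antioxidant enzymes, 2 fell, where 2.39% of all tested genes were called lower. Mgst1, a membrane glutathione transferase, and Cat, catalase, fell by differences of -0.44 ± 0.09 and -0.46 ± 0.10 (adjusted p = 0.00542 and 0.0104). Both calls held with each array left out. Another Cat probe set gave -0.05 ± 0.12 (adjusted p = 0.88).

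Among genes of protein folding and turnover, calls went in both directions. For reference, 1.71% of all tested genes were called higher and 2.39% lower. Pdia3, the disulfide isomerase of glycoprotein folding, had 1071, 1002, 946 and 787 in the MET livers, against 2059.8, 1688, 1396 and 1829 in the CON livers. The groups did not overlap, the difference was -0.85 ± 0.20 (adjusted p = 0.0169), and the call ended without CON 1 or MET 4 (adjusted p up to 0.0596, without CON 1). Fkbp2, a prolyl isomerase of the same compartment, rose by 0.31 ± 0.08 (adjusted p = 0.0196), and the call ended without CON 4, MET 1 or MET 4 (adjusted p up to 0.0791, without CON 4). They were the called genes of 27 tested chaperones of the endoplasmic reticulum, of which 19 lay below 0 with a median of -0.15. Among 32 chaperones of cytosol and mitochondria, Cct2 and Hspe1 fell, at -0.61 ± 0.17 and -0.27 ± 0.08 (adjusted p = 0.0331 and 0.0416), and among 32 proteasome genes Psmb4 and Psmc2 fell, at -0.36 ± 0.10 and -0.40 ± 0.09 (adjusted p = 0.0475 and 0.0158). The call of Cct2 ended without any 1 of 5 of the 8 arrays (adjusted p up to 0.128, without MET 4), that of Hspe1 ended without any 1 of 5 of the 8 arrays (adjusted p up to 0.145, without CON 4), that of Psmb4 ended without any 1 of 6 of the 8 arrays (adjusted p up to 0.183, without MET 3), and that of Psmc2 held with each array left out.

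Ribosomal proteins Rpl8, Rpl10a, Rpl19, Rpl41 and Rps18 rose among 26 tested, by 0.35, 0.35, 0.39, 0.48 and 0.34, with a list median of 0.14 and none falling. The adjusted p were 0.0335, 0.0416, 0.00611, 0.00776 and 0.0202 for these genes in that order. The calls of Rpl19 and Rpl41 held with each array left out; that of Rpl8 ended without any 1 of 6 of the 8 arrays (adjusted p up to 0.101, without MET 3), that of Rpl10a ended without any 1 of 5 of the 8 arrays (adjusted p up to 0.191, without CON 4), and that of Rps18 ended without CON 3, CON 4 or MET 3 (adjusted p up to 0.0819, without MET 3). A dimmer Rpl19 probe set gave 0.22 ± 0.51 (adjusted p = 0.874). A dimmer Rpl10a probe set gave -0.37 ± 0.13 (adjusted p = 0.099), and ribosomal protein probe sets can take signal from the many pseudogenes. Of 13 amino acid stress genes and 12 of folate metabolism none was called. Since 1.71% of all genes were called higher and 2.39% lower, both counts are near the background. In amino acid catabolism, Aass, which starts lysine breakdown, fell, at -0.55 ± 0.11 (adjusted p = 0.00707), and the call held with each array left out. Tdo2, the tryptophan dioxygenase, gave 0.30 ± 0.09 (adjusted p = 0.0476) with overlapping groups; the call ended without any 1 of 6 of the 8 arrays (adjusted p up to 0.191, without MET 3), and a dimmer probe set gave -0.20 ± 0.13 (adjusted p = 0.432).

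Secreted and structural genes completed the picture of the lists. The counts below stand beside 1.71% of all tested genes called higher and 2.39% called lower. Fga and Fgb, chains of fibrinogen, fell, at -0.45 ± 0.12 and -0.51 ± 0.15 (adjusted p = 0.0264 and 0.0476), and Serpinc1, antithrombin, rose by 0.23 ± 0.06 (adjusted p = 0.0271), of 42 tested acute phase, complement and coagulation genes. The call of Fga ended without any 1 of 4 of the 8 arrays (adjusted p up to 0.109, without CON 1), that of Fgb ended without any 1 of 7 of the 8 arrays (adjusted p up to 0.128, without CON 4), and that of Serpinc1 ended without any 1 of 5 of the 8 arrays (adjusted p up to 0.0702, without CON 4). Krt18, a keratin of hepatocytes and bile ducts, had 1345, 984, 1219 and 1351 in the MET livers, against 2466, 2101, 2025 and 2878 in the CON livers. The groups were apart, the difference was -0.93 ± 0.17 (adjusted p = 0.00322), and the call held with each array left out. H2-Q10, a secreted class I molecule made by liver, rose by 0.41 ± 0.08 (adjusted p = 0.0042), the call held with each array left out, and its signal may include related class I genes. In lysosomes and autophagy, Sqstm1, a cargo receptor, and Lamp2, a lysosomal membrane protein, fell, at -0.42 ± 0.08 and -0.45 ± 0.12 (adjusted p = 0.00519 and 0.0271), while Lipa, the lysosomal lipase, rose by 0.56 ± 0.16 (adjusted p = 0.0412). The call of Sqstm1 held with each array left out, that of Lamp2 ended without any 1 of 4 of the 8 arrays (adjusted p up to 0.0929, without CON 1), and that of Lipa ended without any 1 of 6 of the 8 arrays (adjusted p up to 0.126, without CON 3); a dimmer Lamp2 probe set gave -0.02 ± 0.17 (adjusted p = 0.967). Btg1, an antiproliferative gene, fell among 14 growth arrest genes, at -0.50 ± 0.13 (adjusted p = 0.0306), and its call ended without any 1 of 6 of the 8 arrays (adjusted p up to 0.111, without CON 3). No gene of the bile acid, circadian clock or cell cycle lists was called, of 17, 15 and 16 tested. At the shares over all genes, lists of this size would hold few or no calls.

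Some of the largest differences were outside the lists. These genes were picked among called genes whose MET and CON values did not overlap, so their separation follows from that choice. Avpi1, a gene first described as induced by vasopressin, had 212, 134, 249.9 and 169.8 in the MET livers, against values between 56.7 and 70.6 in the CON livers. All MET livers were above all CON livers, the difference was 1.26 ± 0.28, 2.4-fold (adjusted p = 0.00972), and the call held with each array left out. Qdpr, which regenerates the cofactor tetrahydrobiopterin, had 10748, 9043, 8893 and 10594 in the MET livers, against 6785, 7032, 6033 and 5507 in the CON livers. It rose by 0.63 ± 0.10 (adjusted p = 0.00135), with groups apart, and the call held with each array left out. Lap3, a leucine aminopeptidase, had 113, 115, 103 and 101 in the MET livers, against 347, 299, 240.4 and 219 in the CON livers. It was lower in every MET liver, at -1.15 ± 0.19 (adjusted p = 0.00135), and the call held with each array left out. Dyrk1a, a protein kinase, was lower at -0.72 ± 0.14 (adjusted p = 0.00425) and its call held with each array left out. Aqp1, a water channel of bile ducts and vessels, rose by 0.69 ± 0.19 (adjusted p = 0.037) and Nt5e, which makes adenosine from AMP, by 0.70 ± 0.17 (adjusted p = 0.0214). The call of Aqp1 ended without any 1 of 6 of the 8 arrays (adjusted p up to 0.111, without CON 4), and that of Nt5e ended without any 1 of 4 of the 8 arrays (adjusted p up to 0.0702, without CON 4); the other Aqp1 probe set gave -0.11 ± 0.40 (adjusted p = 0.923). Acot7, an acyl-CoA thioesterase, and Ptov1 rose, by 0.62 ± 0.14 and 0.55 ± 0.13 (adjusted p = 0.015 and 0.0157); the call of Acot7 ended without MET 3 (adjusted p = 0.0572), that of Ptov1 ended without MET 3 (adjusted p = 0.0609), and the other Ptov1 probe set gave -0.06 ± 0.15 (adjusted p = 0.882). Brca2, Stk25 and Zfp746 were called from dim signals and each call ended without 4 or more arrays, with adjusted p up to 0.0852 for Brca2 without CON 2, 0.119 for Stk25 without MET 3 and 0.103 for Zfp746 without MET 3.

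**Figure D3:**
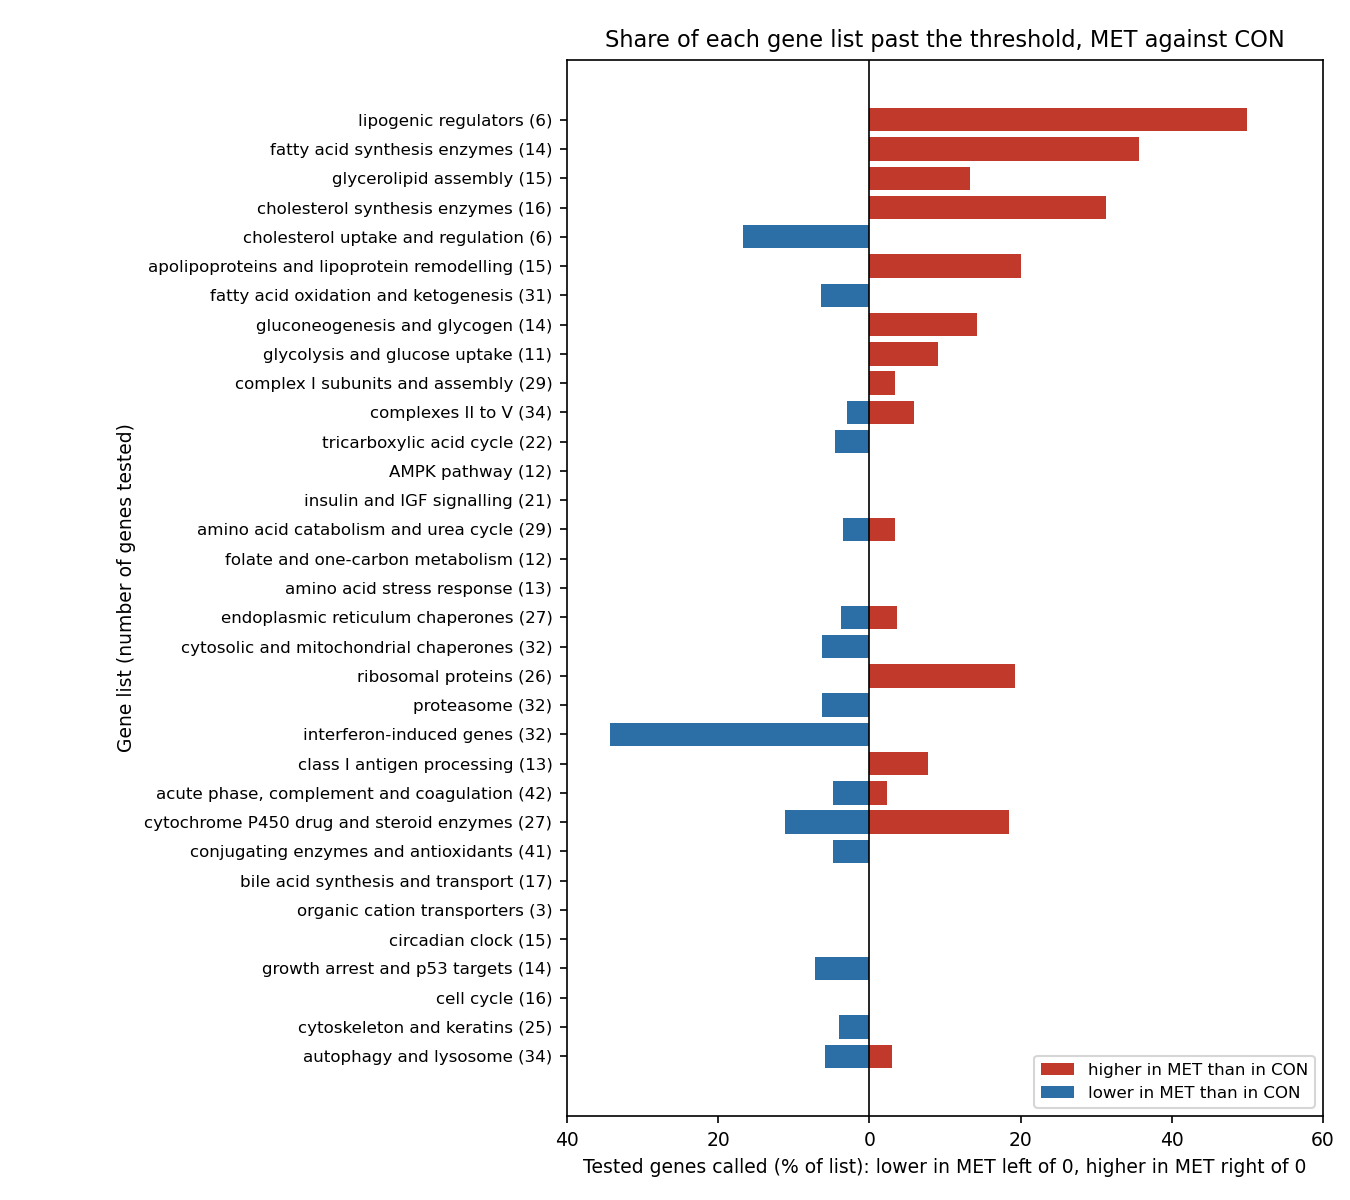
Share of tested genes called in each of 33 pathway lists, in percent, higher in MET to the right of 0 and lower in MET to the left, with the number tested in brackets. The 3 lipid synthesis lists lie farthest right and the interferon-induced genes farthest left.

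Markers of other cell types were read beside these groups. No listed marker of Kupffer cells, endothelial, stellate, T, B or other non-hepatocyte types was called on the deposited values. After quantile normalization, and also with equal medians, 1 of 13 tested endothelial markers was called higher. Groups did not overlap for 4 of 14 Kupffer cell and 3 of 13 endothelial markers, against 9.95% of all genes. The summed intensity of 19 Kupffer cell and macrophage markers ranged between 6636 and 9157 in MET and between 5938 and 7114 in CON, with a median log2 difference of 0.32 over 14 tested, and that of 14 endothelial markers between 3938 and 4574 in MET and between 2886 and 4027 in CON, with a median of 0.28 over 13. Both ran opposite to the interferon-induced genes, and their part in that result was not tested. The Kupffer cell markers Marco and Spic lay below 27.0 in all 8 arrays, as did the T cell markers Cd8a and Cd8b1. Skeletal muscle markers, 17 on the array, summed to between 2953 and 3699 in MET and between 3328 and 21253 in CON, the upper value being CON 3. Without the arrays with muscle transcripts, Ifit1 (adjusted p = 0.00966), Irgm1 (0.000596), Fads1 (0.0123) and Srebf1 (0.0371) were still called and Idi1 (0.0828), Nsdhl (0.0539) and Fdft1 (0.121) were not. The 11 hepatocyte markers summed to between 177868 and 186241 in MET and between 157914 and 174251 in CON, so the labelled tissue carried its defining markers in all 8 arrays. These sums did not overlap, with 1 marker called higher and 1 lower. The median log2 difference of the 11 was 0.14 on the deposited values and -0.07 after quantile normalization.

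Metformin livers were also set against a reference that shares no array with CON, the mean of the 3 groups on other agents without metformin (GLIP, ROS and SOY). Of 5659 genes, 404 were called in that comparison (7.14%), 153 higher and 251 lower, against 176 higher and 134 lower with arrays scaled to equal medians. Since both comparisons use the same MET arrays, their values are given side by side only. Among called genes, the 8 with the largest positive differences were Fdps, Msmo1, Idi1, Thrsp, Cyp7a1, Nsdhl, Dhcr7 and Myo1c, of which 5 are sterol enzymes and Thrsp is lipogenic. Fdps averaged 4279 ± 3134 in MET, 1070.0 ± 435 in GLIP, 599.5 ± 164 in ROS and 857 ± 316 in SOY (SD, n = 4 each), a difference of 2.10 ± 0.37 (adjusted p = 0.00122). Fads1 averaged 7372 ± 2213 in MET, 3447 ± 251 in GLIP, 3091 ± 429.5 in ROS and 3452 ± 498 in SOY, a difference of 1.10 ± 0.14 (adjusted p = 3.83e-05). Nsdhl gave 1.25 ± 0.18 (adjusted p = 9.82e-05), Srebf1 0.51 ± 0.11 (adjusted p = 0.00435) and Slc25a1 0.48 ± 0.08 (adjusted p = 0.00067).

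Some genes short of the threshold against CON passed it here, and some called against CON did not. Of the 81 named genes called against CON, 56 were called against GLIP, ROS and SOY and 25 were not. Among the 25, Cyp4a12b gave -0.70 ± 0.24 (adjusted p = 0.082), Cyp2b13 1.51 ± 0.49 (0.057), Apoa1 0.22 ± 0.08 (0.103), Apoe 0.16 ± 0.08 (0.234), Cyp2e1 0.13 ± 0.07 (0.249) and Brca2 0.53 ± 0.23 (0.173). Msmo1 gave 1.68 ± 0.38 (adjusted p = 0.00755), Dhcr7 1.11 ± 0.22 (adjusted p = 0.00309) and Thrsp 1.53 ± 0.30 (adjusted p = 0.00263). Cyp7a1, the rate-limiting enzyme of bile acid synthesis, averaged 1943 ± 934 in MET, 686 ± 225 in GLIP, 711 ± 585 in ROS and 714 ± 283 in SOY, a difference of 1.44 ± 0.31 (adjusted p = 0.00468), against 0.92 ± 0.38 relative to CON (adjusted p = 0.174). The calls of Fdps, Fads1, Nsdhl, Srebf1, Slc25a1, Msmo1, Dhcr7, Thrsp and Cyp7a1 held with each of the 16 arrays left out; that of Idi1, at 1.59 ± 0.41 (adjusted p = 0.0182), ended without MET 1 or MET 4 (adjusted p up to 0.0866, without MET 1), and that of Fasn, at 0.63 ± 0.18 (adjusted p = 0.0271), ended without MET 1 or MET 2 (adjusted p up to 0.21, without MET 1). Over the whole table the count of called probe sets was 532, and it was 311 without MET 3 and 353 without MET 4.

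Of the interferon-induced genes, Irgm1 gave -0.87 ± 0.14 (adjusted p = 0.000367), a call that held with each array left out. Ifit1 averaged 127 ± 76.0 in MET, 165 ± 55.2 in GLIP, 244 ± 63.9 in ROS and 397 ± 162 in SOY, a difference of -1.03 ± 0.28 (adjusted p = 0.0223), and the call ended without MET 2 (adjusted p = 0.2). Ifi47, Igtp and Rsad2 were also called, at -0.90 ± 0.23, -0.87 ± 0.24 and -0.76 ± 0.21 (adjusted p = 0.0166, 0.0258 and 0.0249). The call of Ifi47 ended without MET 2 or MET 3 (adjusted p up to 0.0757, without MET 2), that of Igtp ended without MET 2, MET 3 or MET 4 (adjusted p up to 0.0953, without MET 2), and that of Rsad2 ended without MET 1, MET 3 or MET 4 (adjusted p up to 0.0912, without MET 4). Ifit3, Usp18, Gbp3 and Isg15 did not pass, at -0.48 ± 0.19, -0.64 ± 0.28, -0.54 ± 0.20 and -0.26 ± 0.16 (adjusted p = 0.126, 0.175, 0.105 and 0.354). Nor did Irf9 and Lgals3bp, at -0.39 ± 0.13 and -0.14 ± 0.12 (adjusted p = 0.0681 and 0.511). Among the largest negative differences were Saa3, an acute phase protein made in inflamed tissue, at -1.65 ± 0.29 (adjusted p = 0.000912), and Pdia3 at -1.02 ± 0.16 (adjusted p = 0.000499); relative to CON, Saa3 gave -0.76 ± 0.35 (adjusted p = 0.25). Cyp2j5, a P450 that oxidises arachidonic acid, gave -1.03 ± 0.29 (adjusted p = 0.0271), and its call ended without MET 3 or MET 4 (adjusted p up to 0.161, without MET 3).

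In livers given glipizide together with metformin, levels differed from those with metformin alone in both directions. Between GM and MET 157 of 5659 genes were called (2.77%), 79 higher and 78 lower in GM, against 135 higher and 45 lower with arrays scaled to equal medians. In a fit to these 8 arrays alone 4 probe sets were called, none higher in GM. Srebf1 averaged 2007 ± 122 in GM and 3902 ± 757 in MET, a difference of -0.93 ± 0.13 (adjusted p = 0.000307). Fads1 averaged 4101 ± 724 in GM and 7372 ± 2213 in MET, at -0.80 ± 0.17 (adjusted p = 0.00918), and Thrsp 580.5 ± 226 in GM and 2614 ± 1856 in MET, at -1.86 ± 0.37 (adjusted p = 0.0065). Cyp2b13 averaged 278 ± 223 in GM and 2314 ± 1342 in MET, at -2.98 ± 0.60 (adjusted p = 0.0065). The calls of these 4 genes held with each of the 8 arrays left out, and in the fit to the 8 arrays alone Srebf1 was called (adjusted p = 0.0316) and Fads1, Thrsp and Cyp2b13 were not (0.165, 0.185 and 0.0783). Fdps averaged 1824 ± 949.6 in GM and 4279 ± 3134 in MET and Ifit1 213 ± 44.1 in GM and 127 ± 76.0 in MET, and neither passed, at -1.07 ± 0.46 and 0.83 ± 0.34 (adjusted p = 0.218 and 0.192). Saa3 averaged 583 ± 145 in GM and 145 ± 108 in MET, at 1.98 ± 0.35 (adjusted p = 0.0038), and its call held with each array left out. Irgm1 and Pdia3 were also higher in GM, at 0.64 ± 0.17 and 0.79 ± 0.20 (adjusted p = 0.0369 and 0.0311); the call of Irgm1 ended without any 1 of 7 of the 8 arrays (adjusted p up to 0.096, without MET 2) and that of Pdia3 ended without any 1 of 5 of the 8 arrays (adjusted p up to 0.127, without GM 3). None of these 3 was called in the fit to the 8 arrays alone (adjusted p = 0.0802, 0.0793 and 0.164). The number of called probe sets, 193, was 90 without MET 2, 93 without GM 3, 107 without GM 4 and 109 without GM 2.

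Across all 8 groups the mean of the cholesterol synthesis list, as log2 difference from the CON mean, was 0.71 ± 0.42 in MET (SD, n = 4), between -0.20 in LTCR and 0.26 in CR8 in the other treated or restricted groups, and 0.00 ± 0.23 in CON. MET 3 at 0.18 lay below CON 2 at 0.30. The mean of the fatty acid synthesis list was 0.41 ± 0.39 in MET, between -0.04 and 0.10 in the other 6 groups, and 0.00 ± 0.06 in CON, and MET 3 at -0.05 lay inside the CON range. The interferon list averaged -0.53 ± 0.18 in MET, -1.30 ± 0.09 in LTCR, -0.67 ± 0.22 in CR8, between -0.28 and -0.16 in GM, GLIP, ROS and SOY, and 0.00 ± 0.24 in CON. CON 3, at -0.32, and MET 3, at -0.33, were next to each other. All these groups share the CON arrays as their zero, and no test was made of the list means.

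**Figure D4:**
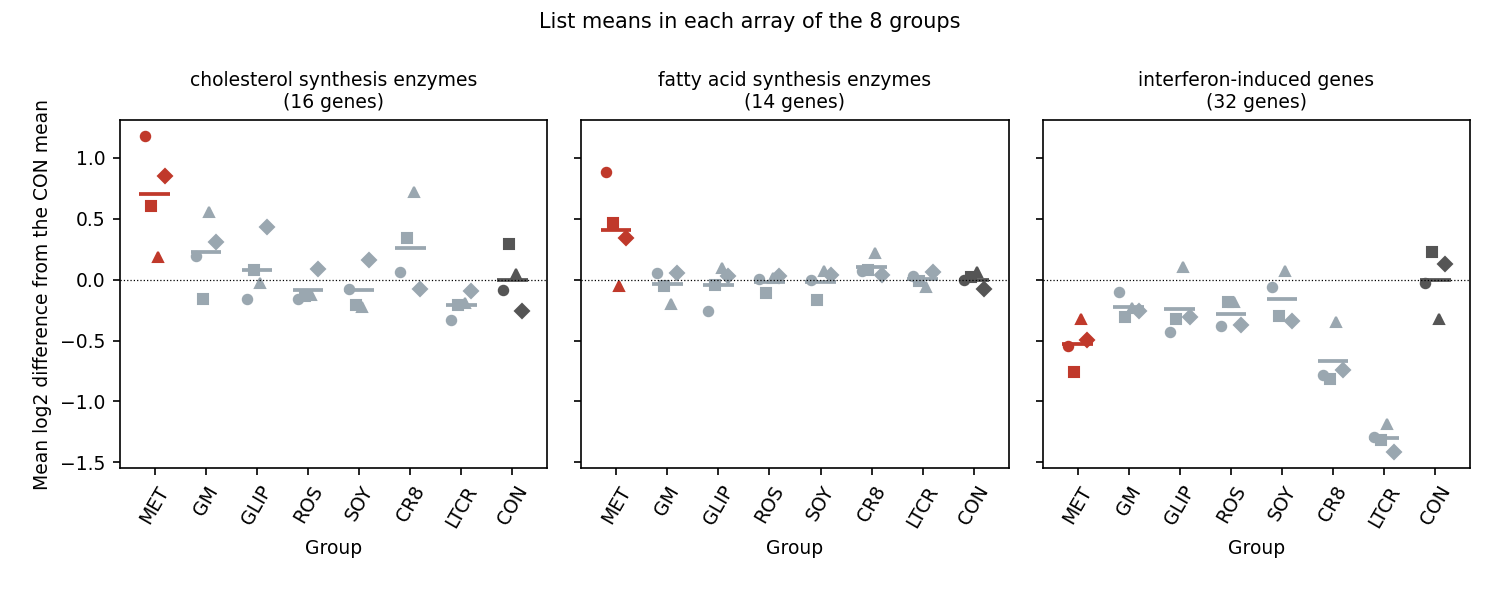
Mean log2 difference from the CON mean over the genes of 3 lists in each array of the 8 groups, with group means as bars and replicates as symbols. The MET values for cholesterol synthesis lie between 0.18 and 1.18 and those for the interferon-induced genes between -0.76 and -0.33.

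The size and direction of calls varied with brightness. In the brightest of 10 equal classes of the tested probe sets the median log2 difference was 0.09, with 69 called higher and 27 lower, and in the dimmest class it was -0.09, with 5 higher and 7 lower. After quantile normalization the medians of these classes were 0.01 and -0.03, and 32 were called higher and 36 lower in the brightest. Of the 81 genes named above as called, 59 were called after quantile normalization and 65 with equal medians. Quantile normalization ended 22 calls, those of Usp18, Igtp, Isg15, Elovl5, Idi1, Apoa1, Apoc1, Apoe, Fbp1, Pgm1, Uqcr10, Atp5l, Tdo2, Cct2, Rpl8, Rpl10a, Rps18, Serpinc1, Cyp2b13, Cyp2c38, Cyp2e1 and Btg1. Equal medians ended 16, those of Usp18, Igtp, Isg15, Irf9, Lgals3bp, Acadl, Cox6c, Dld, Hspe1, Cct2, Psmb4, Psmc2, Fga, Fgb, Btg1 and Lamp2. The fit to the 8 arrays alone called 15 of the 81: Avpi1, Qdpr, Cyp4a12b, Irgm1, Lap3, Ifi47, Rsad2, Krt18, Pdia3, Fdft1, Pcyt2, Pemt, Rpl41, H2-Q10 and Cat. The medians of the 3 lipid synthesis lists were positive and that of the interferon list negative under each of the 3 normalizations, at 0.65, 0.34, 0.48 and -0.50 after quantile normalization for cholesterol synthesis, fatty acid synthesis, lipogenic regulators and interferon-induced genes.

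**Figure D5:**
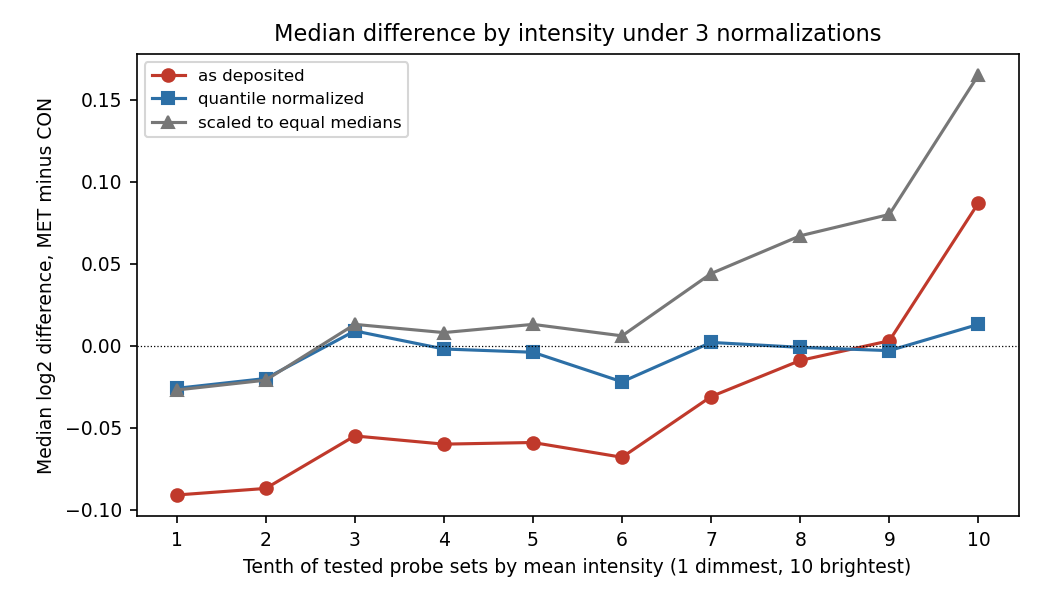
Median log2 difference (MET minus CON) of the tested probe sets in 10 classes of mean intensity, for the deposited values, after quantile normalization and after scaling to equal medians. The deposited values run between -0.09 in the dimmest and 0.09 in the brightest class.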

How the data were processed

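The deposited table holds 1 linear intensity per probe set and array for 32 Affymetrix MG-U74Av2 arrays, which the authors had already scaled: per the file's values, column means without the top and bottom 2% lay between 500.38 and 500.47. For the software, background correction and scan batches nothing is given in the sources used here. The number of arrays limits the precision. Of 12488 probe sets, 66 controls were left out; of 12422, the platform annotation gave 10833 1 gene symbol, 396 several and 1193 none, and genes were named from the first kind only. Groups came from the sample titles, and no 2 columns were identical.

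Values were analysed as log2(intensity + 27.0), the 20th percentile, which understates changes of dim genes. Probe sets whose mean exceeded 94.2, the 40th percentile, went into limma 3.58.1 (R 4.3.3), using lmFit and eBayes with the prior variance following intensity, and Benjamini-Hochberg adjustment over 7507. All 8 groups shared 1 model, whose residual degrees of freedom were 24 and prior ones 4.60. SE is from this fit and SD is over 4 arrays. The adjusted p-values set a difference of group means against the spread between mice within groups. That spread is pooled over all 8 groups and moderated by the prior. The fit was tested on simulated data. Promoters were RefSeq's, build GRCm38.p6.

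The comparison, gene lists and tests were chosen with earlier results of these data known. The text names the 15 largest rises and falls among called genes whose groups do not overlap, and up to 8 called members of each list. It also names fixed metformin-related genes, and the 8 largest differences each way from GLIP, ROS and SOY, leaving out the least informative. For the 15 rises and 15 falls, groups that lie apart are part of the choice and not a further result. Of the list genes, the rises include Nsdhl, Lss, Fads1, Slc25a1, Pklr, Srebf1, Mid1ip1 and Cyb5r3. The falls include Ifit1, Ifit3, Usp18, Rsad2, Irgm1, Ifi47, Gbp3, Igtp, Cyp4a12b, Krt18 and Pdia3. Sqle, Irgm2, Gbp7, Iigp1, and the called interferon-induced genes past the 8, were named after their values were seen. Alternatives were quantile normalization, equal medians, other added values and filters, the compared groups alone, a replicate block, 1 probe set per gene, no trend, each array left out, and, chosen after seeing the data, leaving out arrays whose muscle markers lay more than 1 log2 unit above the median array.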

Additional observations from a re-analysis of the deposited data

Results flagged for a closer look

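In 220 groups of 4 values of the named genes, 12 held 1 liver that stood far from the other 3 for the spread of its group; chance alone gives about 1 in 20 such groups. Of the lipid genes, Fasn in MET 1 was at 2432, against 905 to 1165 in the other MET livers. Thrsp in CON 3 was at 1397, against 824 to 845 in the other CON livers, and Sqle in CON 2 at 568, against 278 to 323. Brca2 in MET 1 was at 145 (others 196 to 206), Prkag1 in MET 2 at 231 (304 to 313) and Rpl41 in MET 3 at 33225 (28637 to 29099). In CON 4, Uqcr10 was at 4274 (4533 to 4560), Fkbp2 at 2015 (2280.0 to 2327) and Rpl19 at 6685 (6410 to 6426). In CON 2, Cox6c was at 8173 (9532 to 9779) and Serpinc1 at 16111 (15371 to 15487), and in CON 3 Aass was at 7845 (6703 to 6894).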

How the results depend on the processing

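Of 308 probe sets called between MET and CON (135 higher, 173 lower), a fit to the 8 arrays alone called 31 (15 higher, 16 lower), leaving out the arrays with muscle transcripts 96 (47 and 49), and leaving out 1 array between 138 and 236 (57 to 105 higher, 69 to 140 lower). Without the filter 83 were higher, and with equal medians 67 were lower. Against GLIP, ROS and SOY the 532 calls became 311 to 591 with 1 array left out; between GM and MET the 193 became 90 to 223, and 4 in the fit to those groups alone. Of 5 called sterol enzymes, 3 were called without the filter or the intensity trend, 1 in the fit to the 8 arrays alone, 2 without the muscle arrays and 2 to 7 with 1 array left out; of 5 fatty acid enzymes, 3 without the filter, the trend or the muscle arrays, 0 in the 8 arrays alone and 3 to 9 with 1 left out. The 3 regulators became 0 and 1 to 3, and the 11 interferon-induced genes 3 in the 8 arrays alone, 6 with equal medians and 4 to 12 with 1 left out. The fit to the 8 arrays has fewer degrees of freedom; for the other settings the cause was not tested. Of the 81 named calls, 29 held with each array left out.

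The replicate number as a block gave 284 called probe sets (117 higher, 167 lower) and 76 of the 81 named calls, ending those of Fasn, Idi1, Tdo2, Hspe1 and Fgb. Same-numbered MET and CON livers correlated in their deviations at 0.095, 0.053, -0.095 and -0.117, so the numbers were not taken as pairs.

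Differences that changed sign were small and not called. With equal medians they were 0.023 for Prkab1, 0.071 for Stk11, 0.032 for Ndufs1, 0.033 for Pcx and 0.0074 for Gpd2; after quantile normalization, 0.037 for Stk11 and -0.023 for Ppara; without the muscle arrays, 0.015 for Stk11, 0.0040 for Igfbp1 and -0.017 for Ppara. With 1 array left out the range was -0.090 to 0.0047 for Prkab1, -0.080 to 0.034 for Stk11, -0.64 to 0.0040 for Igfbp1, -0.14 to 0.38 for Ppara, -0.35 to 0.014 for Nr0b2, -0.23 to 0.25 for Gpd2, and -0.030 to 0.28 for Cyp4a10 between GM and MET. The cause was not tested.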
